A study of Oryza sativa with 46 samples.

Results

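The seedlings of Pokkali, a landrace that the study lists as salt tolerant, were compared under salt with those of 3 other *indica* genotypes, PSBRc50 and IR58 (both listed as moderately tolerant) and BRRIdhan 29 (listed as susceptible). All arrays labelled Pokkali at 120 mM NaCl (3) were set against the 120 mM arrays of PSBRc50 (replicates 1 and 2), IR58 (3) and BRRIdhan 29 (2), which made 10 arrays of the 46 analysed here. Each of the 3 varieties had the same weight. The third PSBRc50 array at 120 mM was left out, because over all probes its deviations had a correlation of −0.03 with the other PSBRc50 arrays and of 0.80 with the *japonica* cultivar Banikat.

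Total RNA was taken from whole seedlings of rice, root and shoot together, and hybridised to one-color Agilent rice oligonucleotide arrays. All 4 genotypes were raised singly in flasks of nutrient solution and harvested at an age of 16 days, after 48 h with 120 mM NaCl or with 0 mM NaCl. Each replicate was 1 seedling by the methods, and pieces of root, stem and leaf stood for heavy seedlings. Unstressed arrays of the same genotypes (3 of Pokkali, 3 of PSBRc50, 1 of IR58 and 2 of BRRIdhan 29) served as arrays that the choice of probes had not used. At 0 mM, IR58 replicate 2 was left out because it was most like BRRIdhan 29 (correlation 0.63). BRRIdhan 29 replicate 2 was left out because it was most like IR58 (0.41). Whether their labels were swapped was not tested. The unstressed mean of IR58 rests on 1 array.

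Salt outside the root lowers water uptake and lets sodium enter the plant, where it competes with potassium. Tolerant plants are known to hold sodium out of the shoot or to store it in vacuoles, work that depends on ion exchangers and channels and on the proton pumps that energise them, and to build up protective solutes and proteins such as dehydrins. Genotypes of a crop also differ in genes with no link to salt, above all in resistance genes and mobile elements, which vary strongly between rice varieties.

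A value below is the log2 of the scanner's processed signal of a probe, quantile-normalized between arrays. A difference is Pokkali minus a variety, so 1 unit is a doubling. A probe was said to set Pokkali apart when limma called it in the same direction against PSBRc50, IR58 and BRRIdhan 29, each at a Benjamini-Hochberg adjusted p of at most 0.05 over 42477 probes, and probes were ranked by the smallest of their 3 differences. Of these probes, 265 (0.624%) were higher in Pokkali than in each variety and 399 (0.939%) were lower. They belonged to 553 loci, with 226 loci higher and 329 lower, and 2 loci in both sets.

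Taken variety by variety, Pokkali differed at 1848 probes (4.35%) from PSBRc50, of which 799 were higher, at 2083 (4.9%) from IR58, of which 1012 were higher, and at 2003 (4.72%) from BRRIdhan 29, of which 927 were higher. Against the equal-weight mean of the 3 varieties, 1484 probes (3.49%) were higher in Pokkali and 1674 (3.94%) lower. The median difference over all probes lay between 0.00 and 0.02 in these contrasts, which quantile normalization brings about. Before it, the median log2 signal of the 10 arrays ran from 6.30 to 10.09. Each of the 10 arrays was most like the other arrays of its own genotype, whereas 8 of the 46 arrays of the series were most like a genotype other than that of their label. Each array had 26898 to 36287 probes with a signal well above background, the fewest on IR58 replicate 3, and no spot was saturated. As a check of the labelled tissue, 8 leaf genes averaged 17.03 to 17.69 per array and 9 root genes 8.46 to 10.71, with the Pokkali arrays (8.65 to 9.78 for root) inside the range of the others. In such whole seedlings, fewer cells of a type and less RNA per cell cannot be told apart.

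In size, the smallest of the 3 differences ran from 0.84 to 11.35 for the higher probes and from 0.93 to 10.36 for the lower. The median of the smallest difference was 2.89 for the probes higher in Pokkali and −2.88 for those lower. It reached 3 in size at 128 higher and 189 lower probes, and 5 at 54 and 83. For 119 of the 265 higher probes (44.9%), the signal was not well above background on any of the 7 arrays of the other varieties, whereas for 92 of the 399 lower probes (23.1%) it was not so on any Pokkali array. Both sides were above background on every array for 59 higher and 240 lower probes. Among these, the median of the smallest difference was 1.56 and −2.05.

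Most of the largest differences belonged to loci described as hypothetical or given no description in the study's tables, the source of all descriptions used here. The largest was Os01g0944200 on chromosome 1, a conserved hypothetical protein, with log2 signals of 13.22, 13.15 and 13.50 in Pokkali. Its signal was 1.41 and 2.48 in PSBRc50, 1.46, 1.38 and 1.85 in IR58 and 1.25 and 1.34 in BRRIdhan 29, not well above background on any of these 7 arrays. The groups lay far apart, and Pokkali was at least 1636-fold brighter (adjusted p = 4.87e-07 by limma against the mean of the 3). A bound of this kind sets the mean of the bright side against the lowest signal that counted as well above background on each array of the dim side, or the dim probe's own signal where higher. It is taken for the mean of the 3 varieties, so a single variety can lie closer to Pokkali.

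Os11g0660500, a translationally controlled tumor protein (a small, abundant protein of growing cells), came next. Its probe from transcript AK105453 gave 12.06, 12.34 and 12.19 in Pokkali and 1.35 to 2.33 on the 7 other arrays, at least 769-fold (adjusted p = 4.87e-07 by limma). A second probe of the locus, from D12626, did not separate them. It gave 16.64 to 17.85 in Pokkali and 17.26 to 18.09 in the others, with a difference of −0.48 ± 0.29 (SE) and an adjusted p of 0.407 by limma. The neighbouring locus Os11g0660400 encodes a plasma membrane H+-ATPase, the pump that drives the transport of ions across the cell membrane. Its probe AK068481 read 8.55, 9.39 and 9.21 in Pokkali and 1.40 to 3.31 elsewhere, at least 85.3-fold (adjusted p = 2.47e-05), while its other probe, AK101516, lay between 1.55 and 3.59 in Pokkali and between 1.42 and 3.21 elsewhere (difference 0.39, adjusted p = 0.732).

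Os04g0186400, phosphate transporter 6, which takes up phosphate, showed the same pattern. Probe AK063990 gave 9.10, 9.49 and 9.15 in Pokkali and 1.21 to 1.51 on the other arrays, at least 101-fold (adjusted p = 4.87e-07 by limma). The 4 other probes of this locus had differences between −0.37 and 0.72, none of them called, and their groups overlapped. Os02g0791800, a WD40-like protein (a fold that joins proteins into complexes), was higher by both of its probes that were called, by 8.15 and 7.15. Os01g0960500, a copine (a protein that binds membranes when calcium rises), read 11.10, 10.64 and 10.55 in Pokkali and 1.89 to 3.10 elsewhere.

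Further loci high in Pokkali and near or below background in the varieties were Os04g0188500 and Os04g0188400, whose probes come from a single transcript, AU166251, and so count as 1 signal (10.30 and 8.65 by the smallest difference). Os09g0467700, Os12g0425800 and Os07g0469200, all without a named product, had smallest differences of 10.02, 9.15 and 8.95. Os12g0539800 and Os01g0845900, an EF-hand protein (a calcium-binding fold), also share a transcript, AU166889, and were higher by 8.00 and 7.59 against the mean of the 3. The least even of the top probes was Os03g0785100, at 14.14, 15.05 and 14.56 in Pokkali. In IR58 replicate 3 it read 9.80, against 3.92 to 7.61 on the other 6 arrays, and its SE of 1.05 was the widest of the 15 highest probes (difference 8.75, adjusted p = 0.00173).

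**Figure D1:**
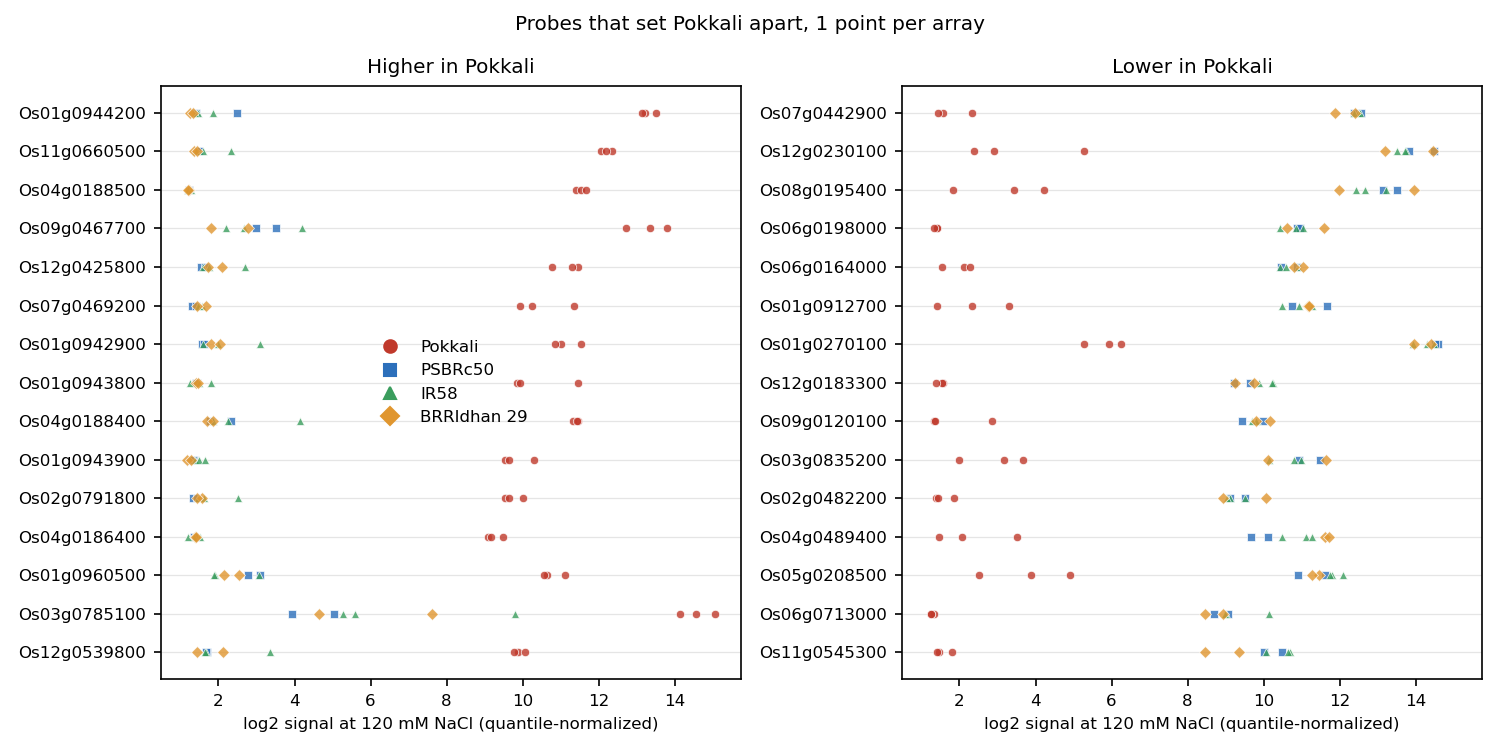
Log2 signal (x axis, quantile-normalized) on each of the 10 arrays at 120 mM NaCl for the 15 probes with the largest smallest difference higher in Pokkali and the 15 lower; each row is a locus and each point an array, with color and shape giving the genotype. In every row the 3 Pokkali points lie clear of the other 7, for instance 13.15 to 13.50 against 1.25 to 2.48 for Os01g0944200.

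Among the loci lower in Pokkali, Os07g0442900 led the rank. Pokkali gave 1.56, 2.33 and 1.43, not well above background. The signal was 12.56 and 12.38 in PSBRc50, 12.47, 12.37 and 12.53 in IR58 and 11.86 and 12.40 in BRRIdhan 29, at least 1134-fold brighter than in Pokkali (adjusted p = 5.84e-07 by limma). The locus carried no description. Os12g0230100, a homolog of clpA (the ATP-binding subunit of the chloroplast Clp protease, which unfolds proteins for breakdown), read 2.90, 2.39 and 5.28 in Pokkali and 13.20 to 14.48 in the others. Here 2 of the 3 Pokkali arrays were above background, and the difference was −10.35 ± 0.61 (SE; adjusted p = 3.11e-05).

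Enzymes of known role stood among the next loci. Os12g0183300, a 3'(2'),5'-bisphosphate nucleotidase, belongs to an enzyme family whose yeast member is inhibited by sodium. By its probe U33283 it gave 1.56, 1.53 and 1.39 in Pokkali and 9.21 to 10.23 elsewhere, at least 177-fold lower in Pokkali (adjusted p = 6.55e-07 by limma), and its other probe, AK058937, gave 1.52, 2.02 and 1.40 against 9.22 to 10.30. Both probes separated the groups in the same way. Os06g0713000, a zinc-finger protein of the CONSTANS type (named after a regulator of flowering in Arabidopsis), read 1.32, 1.26 and 1.25 against 8.44 to 10.15 by AK105957, and its probe AB001884 differed by −7.37 in the same direction.

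The remaining 10 of the 15 lowest were Os08g0195400, Os06g0198000, Os06g0164000, Os01g0912700, Os01g0270100, Os09g0120100, Os03g0835200, Os02g0482200, Os04g0489400 and Os05g0208500, none with a product named beyond hypothetical protein. Their differences against the mean of the 3 ran from −9.86 for Os08g0195400 to −7.74 for Os05g0208500. All 3 Pokkali arrays stood above background for Os01g0270100, at 5.94, 6.25 and 5.27, against 13.93 to 14.59 in the varieties. For the probe of Os06g0198000, a newer annotation in the array files gives another locus, Os05g0295700. Such a change applied to 9 of the 265 higher and 40 of the 399 lower probes, and 45 and 39 had no newer locus.

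Further enzymes and transport proteins were lower in Pokkali by several probes each (loci chosen after their values were seen). Os01g0951200, a uridine 5'-monophosphate synthase that completes pyrimidine synthesis, is described with its opposing probes below. Os05g0128400, metal tolerance protein 1, which in Arabidopsis moves zinc into the vacuole, read 5.22, 6.63 and 5.45 in Pokkali and 10.15 to 10.94 in the others by probe AY266290 (difference −4.72, adjusted p = 8.47e-05 by limma) and differed by −4.54 by AK100735. Os12g0514000, a sugar transporter, differed by −6.95 and −6.96, although Pokkali replicate 3 read 6.80 by probe AK061613 where replicates 1 and 2 read 1.32 and 1.37. Os07g0277600, a SUI1 homolog (a factor in the choice of the start codon), differed by −5.04 to −5.51 in 3 probes. Os12g0540900, a tryptophanyl-tRNA synthetase, differed by −3.40 and −3.52.

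The varieties did not always match each other where they differed from Pokkali. Os08g0198700, a glycolate oxidase (an enzyme of photorespiration), gave 1.54, 1.61 and 1.96 in Pokkali by probe AK060371. It gave 5.06 and 5.17 in PSBRc50 but 10.63 to 11.55 in IR58 and BRRIdhan 29, so that the difference was −3.41 against PSBRc50, −9.14 against IR58 and −9.50 against BRRIdhan 29. Os11g0444000, a UDP-glucosyltransferase, gave 1.80, 1.53 and 1.41 in Pokkali and 2.56, 2.43 and 2.78 in IR58, which was also not well above background there. In PSBRc50 (6.88 and 7.22) and BRRIdhan 29 (6.73 and 7.00) it was clear, and the call against IR58 rested on a difference of −1.01 (adjusted p = 0.0392).

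Different probes of a locus often told different stories. Of the 226 loci with a higher probe, 78 had several probes, at least 2 of them set Pokkali apart at 20, and at 59 all probes had the same sign. Of the 329 loci with a lower probe, 118 had several, 51 had at least 2 apart and 89 had all of 1 sign. At 2 loci, named here for that reason, probes went in opposite directions. Os11g0545300, a peptidase of the ubiquitin carboxyl-terminal hydrolase family that removes ubiquitin from proteins, was lower in Pokkali by 5 probes, among them AY154917 at 1.47, 1.42 and 1.81 against 8.46 to 10.69 (difference −8.30, adjusted p = 1.55e-06). Its probe AK099478, which the array marks as lying in the untranslated part, was higher in Pokkali at 7.81, 8.16 and 7.59 against 1.19 to 1.34 (difference 6.60, adjusted p = 8.3e-07). Os01g0951200 was lower by 4 probes (−5.74 to −6.98) and higher by AK069565 (9.29, 8.67 and 9.36 against 2.87 to 4.66, difference 5.45, adjusted p = 3.36e-05). What the sequence under each probe contributes was not tested.

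Os11g0184900, the transcription factor OsNAC5, known in rice as responsive to salt and abscisic acid, had 4 probes. AK064292 was apart at 1.57, 1.66 and 1.44 in Pokkali against 7.43 to 8.32 (difference −6.39, adjusted p = 1.41e-06 by limma). The other 3 were bright in all 4 genotypes and not called, with differences of 0.07, 0.16 and 0.49. Os03g0854500, heat shock transcription factor 31, was lower by 1.51 on the log2 scale by AK100430 (8.63, 8.34 and 8.59 against 9.80 to 10.40), and its 2 other probes differed by 0.25 and 0.26 and were not called.

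**Figure D2:**
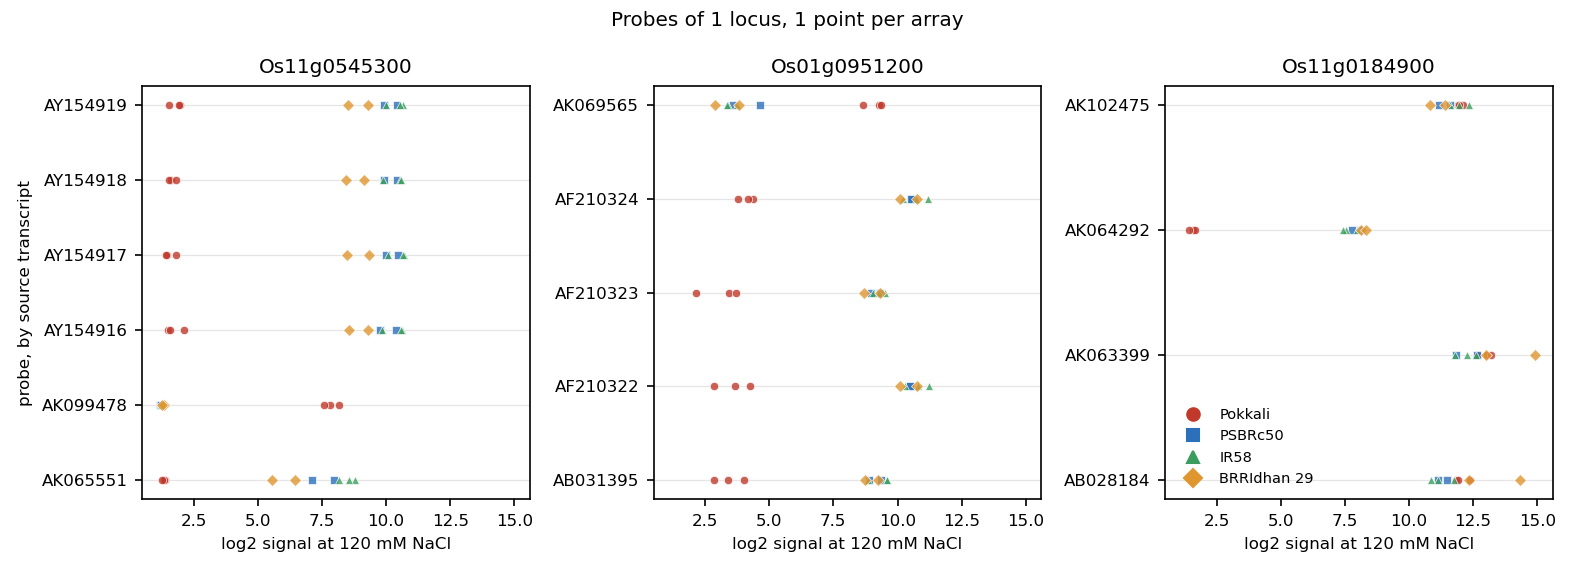
Log2 signal (x axis) of each probe (y axis, named by its source transcript) of 3 loci on the 10 arrays at 120 mM NaCl, 1 point per array, color and shape by genotype. At Os11g0545300 the probe AK099478 runs opposite to the other 5, and at Os11g0184900 the Pokkali points leave the others only at AK064292 (1.44 to 1.66 against 7.43 to 8.32).

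Loci that set Pokkali apart lay side by side in several places. Where at least 4 such loci followed each other with no more than 5 loci on the array between neighbours, 9 stretches were found (chromosome and order are read from the locus number). On chromosome 1, 7 of the 10 loci from Os01g0942900 to Os01g0944700 were apart, 6 of them higher. Os01g0942900 and Os01g0943800, both ankyrin repeat proteins (a fold for binding other proteins), were higher by 9.22 and 8.95 (probes CI343980 and AK059510). Os01g0943800 read 9.85, 9.94 and 11.45 in Pokkali and 1.24 to 1.81 elsewhere. The newer annotation assigns the probe of Os01g0942900 to Os01g0943800, so the pair may be 1 gene. Os01g0943900 was higher by 8.46, Os01g0943000 by 7.71 and Os01g0944200 by 11.69, whereas both probes of Os01g0944700 were lower, by −2.99 and −3.07. Os01g0943900 and Os01g0943000 share a source transcript, CI442151, so that the stretch holds 9 transcripts in 10 called probes.

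On chromosome 7, 6 of the 11 loci from Os07g0468100 to Os07g0470400 were apart and all 6 were higher. Os07g0468100, glutathione S-transferase GST 19 (which joins glutathione to toxic compounds), read 7.72, 7.98 and 8.74 in Pokkali and 1.40 to 2.11 elsewhere by AK105890, at least 46.1-fold. Its probe AK069604 did not differ beyond its error (0.00 ± 0.50, SE, adjusted p = 0.999 by limma). The largest difference of the stretch was that of the non-coding transcript Os07g0469200 (9.03). Elsewhere on this chromosome, 4 of the 9 loci from Os07g0491500 to Os07g0492500 were apart and all 4 were lower.

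On chromosome 12, the 6 loci apart among the 13 from Os12g0226700 to Os12g0230100 were split, 2 higher and 4 lower. They included Os12g0230100, the clpA homolog, and a pair of allyl alcohol dehydrogenases in opposite directions. Os12g0227400 gave 2.17, 1.36 and 2.01 in Pokkali and 6.89 to 10.59 elsewhere (at least 74.1-fold lower in Pokkali than the mean of the 3, and closest to BRRIdhan 29, with a difference of −5.80). Os12g0226700 was weak, at 3.50, 4.02 and 3.62 in Pokkali and 1.30 to 1.49 elsewhere, at least 2.19-fold. The third member on the array, Os12g0226900, differed by −0.52 to −0.58 in 3 probes that were not called.

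The other 5 stretches began at Os03g0828300 (5 of 7 loci), Os08g0203700 (4 of 8), Os11g0605100 (5 of 10), Os11g0629100 (5 of 12) and Os12g0170600 (4 of 10), and each held loci of both directions. By chromosome, the share of loci with a probe apart was highest on 11 (3.67%) and 12 (3.45%) and lowest on 3 (1.19%) and 9 (1.22%).

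**Figure D3:**
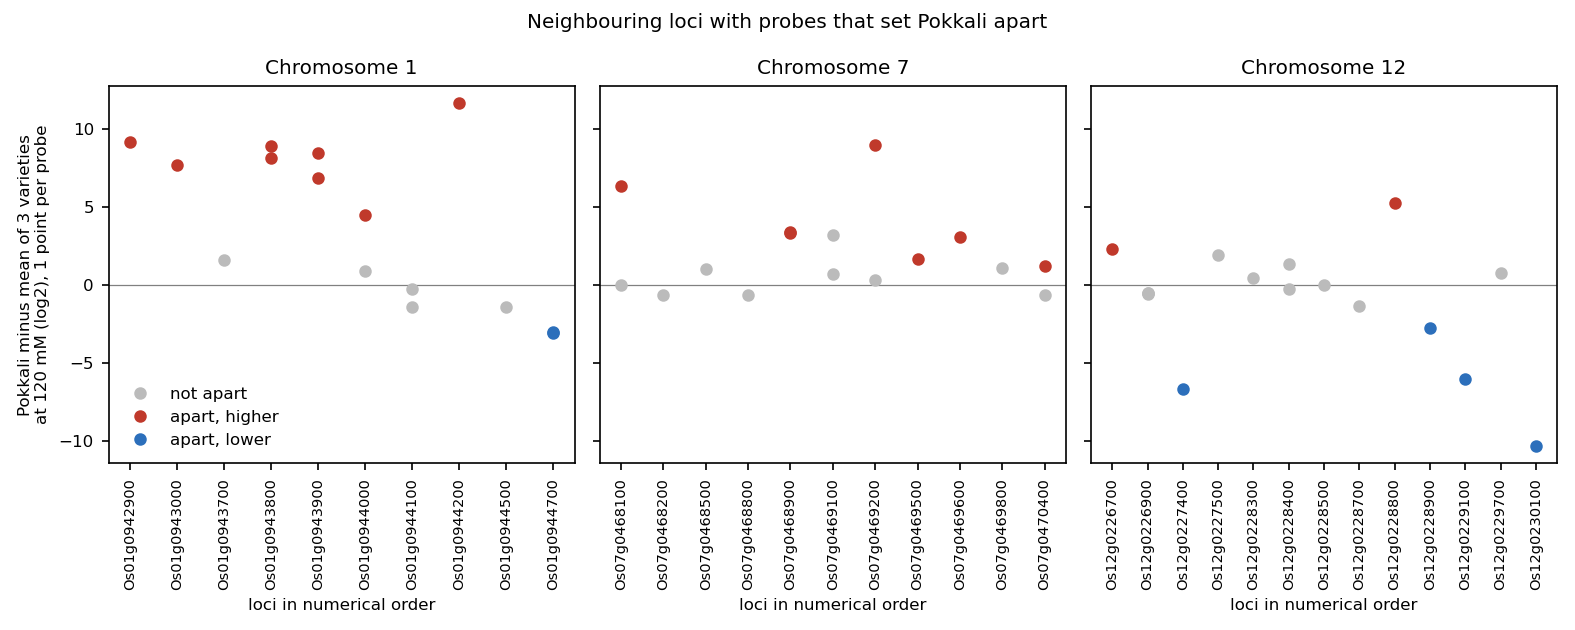
Difference between Pokkali and the mean of the 3 varieties at 120 mM NaCl (y axis, log2; 1 point per probe) for the loci of 3 stretches in numerical order (x axis). Red points set Pokkali apart from each variety as higher, blue as lower and grey points do not. Grey points lie among the others and reach 3.21 on chromosome 7, a probe called against the mean of the 3 alone (adjusted p = 0.0070 by limma). Only that stretch has no blue point.

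Gene groups were counted by locus, each by its brightest probe. Counted so, 189 of 29689 loci (0.637%) were apart and higher in Pokkali and 297 (1.0%) lower. Descriptions were at hand for 5495 loci that the study's own tables list. Those tables hold loci that the study found significant for plant traits across its genotypes on these same arrays. Described loci were thus chosen in part by differences between genotypes. They were apart more often (2.91%) than all loci (1.64%), so the counts of described groups are best read against the former. Of the 553 loci, 192 had a description and 80 of those were hypothetical or non-coding.

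The groups with the highest shares were transposable elements and disease resistance genes, among described loci that were chosen in part by these same arrays. Of 36 loci of transposable elements, 6 were higher and 1 was lower (19.4%). Os06g0491800, a transposable element Ac, gave 8.71, 9.58 and 9.09 in Pokkali, while the others ranged from 1.41 to 4.69 with a median of 2.09, and only 1 of the 7 was well above background (difference 6.56, adjusted p = 0.000368 by limma). Os06g0271500, of the En/Spm type, was higher by both probes, by 6.16 and 4.04. Os01g0894100, a transposase, and Os07g0102900, a MuDR transposase, were higher by 5.61 and 5.50. Os02g0140500, a mutator-like transposase, was the lower one (−1.93 and −1.98). The 7 calls fell to 2 with PSBRc50 replicate 3 kept and to 1 with a spread shared by all groups.

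Of 69 disease resistance loci, 6 were higher and 1 lower (10.1%). Against the mean of the 3 varieties alone, 8 of the 69 were called higher and 6 lower, and their median difference was 0.0007. Of all 5495 described loci, 222 were called higher and 246 lower in that contrast. At 0 mM, 10 of the 69 were called higher and 7 lower, beside 228 and 215 of all described loci. Proteins of this group, with a nucleotide-binding domain, sense molecules of pathogens inside the cell. Os11g0605100 read 7.34, 7.90 and 7.59 in Pokkali and 1.40 to 2.22 elsewhere, at least 32.4-fold (adjusted p = 2.62e-06 by limma). Os06g0287700 (6.99, 6.83 and 7.36 against 1.19 to 3.25) and Os11g0590700 (5.77, 6.13 and 7.05 against 1.18 to 1.77) were also bright in Pokkali alone among the 4 genotypes. Os05g0240200 was the lower locus, at 1.94, 2.02 and 1.45 against 6.63 to 8.32, at least 39.9-fold. With PSBRc50 replicate 3 kept the 7 calls fell to 1, with a shared spread to 2 and with normexp background correction to 4. Of 29 receptor-like kinases, which sense signals at the cell surface, Os11g0569800 was apart (3.45%), at least 9.21-fold higher. Of 44 pathogenesis-related proteins, Os11g0700900, a class III chitinase (an enzyme that cuts fungal cell walls), was apart (2.27%), at 5.55, 5.63 and 5.31 in Pokkali against 6.86 to 7.70.

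Of 63 F-box proteins, which select proteins for breakdown, 1 was higher and 3 were lower (6.35%). Os11g0539600 read 9.25, 9.18 and 9.28 in Pokkali and 1.53 to 3.27 elsewhere (at least 82.4-fold). Os10g0142500, Os08g0203800 and Os07g0442000 differed by −5.42, −5.92 and −3.38. Of 16 glutathione transferases, 1 was apart (6.25%, Os07g0468100) and 1 of 41 glycosyltransferases (2.44%, Os11g0444000). None of 47 ribosomal protein loci was, by its brightest probe, although a less bright probe of Os03g0385900, a mitochondrial ribosomal protein, was higher by 1.27.

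Among described loci of the groups usually linked to salt, few were called, beside 2.91% of all described loci. Most groups in this paragraph hold 13 loci or fewer, where a count of 0 or 1 is near that share. Loci without a description were not counted, which left out 9 of 14 listed loci of sodium transport, 11 of 16 of abscisic acid, 4 of 8 of osmoprotectants and 5 of 9 of gibberellin. Of 12 proton pump loci, 1 was apart, the H+-ATPase Os11g0660400 (8.33%). No locus was apart among 5 described loci of sodium transport, 7 of potassium transport, 7 aquaporins, 13 dehydrins and LEA proteins, 5 of abscisic acid, 4 of osmoprotectants, 4 of gibberellin, 62 peroxidases, 8 antioxidant enzymes, 37 cytochromes P450, 8 of terpene and phytoalexin synthesis, 29 heat shock proteins, 13 of photosynthesis and 153 transcription factors whose description names 1 of the listed families. Against the mean of the 3 varieties alone, limma called 1 sodium transport locus and 1 gibberellin locus lower, 2 transcription factors lower, and 5 peroxidases, 1 cytochrome P450 and 1 heat shock protein higher. In that contrast, 222 of all 5495 described loci were called higher and 246 lower. The wording of their descriptions kept some loci out of these lists. Of these, Os03g0417700, an E-class P450, was apart and higher by 5.36, and the regulators Os11g0184900 (OsNAC5), Os03g0854500 (heat shock transcription factor 31) and Os06g0713000 (CONSTANS type) were apart and lower as given above. The median difference was 0.80 in sodium transport and −0.68 in dehydrins and LEA proteins, beside −0.01 for all described loci, and in the other groups just named it lay between −0.42 and 0.27.

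Of 154 loci numbered Os01g0290000 to Os01g0330000, around Os01g0307500, 1 was higher and 2 were lower by their brightest probe (1.95%). Os01g0291500, a transferase family protein, gave 8.25, 6.45 and 7.89 in Pokkali and 1.27 to 3.75 elsewhere, at least 25.8-fold. Os01g0311600, a sulfotransferase, gave 3.50, 4.50 and 3.98 against 6.06 to 7.40, and Os01g0314000 differed by −3.63. At Os01g0306800 the less bright of its probes was higher by 2.70. Os01g0307500 itself did not separate the genotypes. It read 5.73, 6.18 and 5.28 in Pokkali and 3.77 to 9.20 elsewhere, the highest in IR58 replicate 3 (difference 0.59 ± 1.07, SE, adjusted p = 0.802 by limma). Os01g0883800, a gibberellin 20-oxidase that makes active precursors of this growth hormone, had 5 probes with differences of −0.04 to −0.92, none called, and overlapping groups.

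Os01g0348900, a jacalin-related lectin (a sugar-binding protein), was bright in all 4 genotypes. By AF001395 it gave 13.41, 14.10 and 14.58 in Pokkali. It gave 17.87 and 17.47 in PSBRc50, 17.92, 17.63 and 16.54 in IR58 and 17.11 and 17.01 in BRRIdhan 29, a 10.1-fold higher mean (difference −3.34 ± 0.36, SE, adjusted p = 0.000958 by limma). All Pokkali arrays lay below all others. Of its other probes, 3 differed by −3.21 to −3.46 and were apart, and AK062520 was not above background in any of the 4 genotypes.

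Whether these differences were tied to salt was asked with the unstressed arrays. Pokkali differed from the mean of the 3 varieties at 0 mM at 2160 of 42227 probes (5.12%), of which 1031 were higher. Of the probes apart and higher under salt, 196 of 265 (74.0%) were called higher at 0 mM too, beside 2.44% of all probes. Of those lower, 312 of 399 (78.2%) were called lower, beside 2.67%. The fit for 0 mM shares its spread with the 120 mM arrays that chose the probes, so these shares are not free of that choice. No probe was called in the opposite direction, and 8 had no value because their spot in the only IR58 array was flagged. The median difference of the higher probes was 3.38 at 120 mM and 2.83 at 0 mM, and that of the lower probes −3.26 and −2.80. The probes were chosen by their 120 mM values, which favours larger differences there, so these medians do not show a change with salt.

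The leading loci were as far apart without salt. Os01g0944200 read 12.92, 13.04 and 12.51 in unstressed Pokkali and 1.36 to 1.47 in the others (difference 11.40). Os07g0442900 read 1.51, 1.59 and 2.29 against 11.40 to 12.65 (−10.23), and Os12g0230100 read 2.11, 1.24 and 1.73 against 12.44 to 13.87 (−11.82). Each of these was called at 0 mM. In the stretches, only the probes apart under salt were counted. Of these, 10 of 10 on chromosome 1 were called at 0 mM. The counts were 7 of 7 from Os07g0468100 to Os07g0470400 and 6 of 6 from Os12g0226700 to Os12g0230100. They were 3 of 5 in the stretch from Os03g0828300 and 3 of 4 in that from Os08g0203700. Other probes within the first 3 stretches, not apart under salt, were in part not called at 0 mM either.

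**Figure D4:**
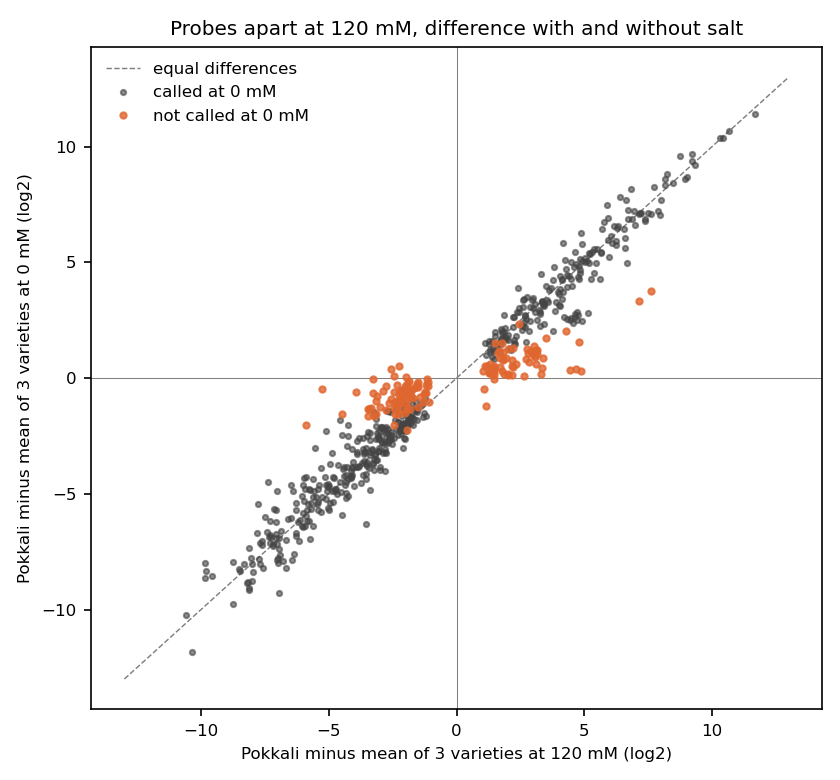
Difference between Pokkali and the mean of the 3 varieties for the probes apart at 120 mM NaCl, with the difference at 120 mM on the x axis and that at 0 mM on the y axis (both log2; 1 point per probe with a value in both). Most points follow the dashed line of equal differences; dark points are called at 0 mM (196 higher and 312 lower) and orange points are not.

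The change of the difference between 0 mM and 120 mM was tested directly. By limma's interaction contrast no probe of 42227 passed (0.0%), with a lowest adjusted p of 0.131, while 3198 had an unadjusted p under 0.05, 172 of the 664 probes apart among them. With the authors' processed values 7 passed, of which 5 had no value in the main test and none was apart under salt. The probes below are the 6 apart under salt, not called at 0 mM and lowest in that unadjusted p, with the lectin and Os08g0496800 added, and their order is a description of arrays chosen by these same values.

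In Os01g0348900 the difference by AF001395 was −1.28 at 0 mM (adjusted p = 0.0913) and −3.34 at 120 mM (interaction unadjusted p = 0.00189, adjusted p = 0.414). Unstressed Pokkali gave 12.29, 12.18 and 12.44 and the varieties 11.78 to 14.54, so the groups overlapped. Of the 4 probes apart under salt, 1 was called at 0 mM, AF285163, with a difference of −1.55 (adjusted p = 0.0483).

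Another 3 loci were level without salt and lower in Pokkali with it. Os03g0734300 gave 11.53, 11.75 and 10.93 in unstressed Pokkali and 9.94 to 11.56 in the unstressed varieties, and 10.60, 10.94 and 11.08 against 12.85 to 13.95 under salt (change of the difference −2.95, adjusted p = 0.149). Os07g0213500 gave 9.71 to 10.02 against 9.50 to 10.03 without salt and 9.70 to 10.19 against 11.40 to 12.58 with it (−2.01, adjusted p = 0.154). The Pokkali values with and without salt overlapped in both loci, while those of the varieties lay higher under salt. In Os04g0419100, a hypothetical protein, Pokkali gave 8.07 to 9.16 and 8.69 to 9.18, and the varieties 6.91 to 9.33 and 10.68 to 11.85 (−2.77, adjusted p = 0.154).

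The remaining 3 of the 6 were level without salt and higher in Pokkali with it. Os05g0214300 gave 8.26, 8.19 and 7.76 in unstressed Pokkali and 6.03 to 8.54 in the varieties, and under salt 6.89, 6.38 and 7.00 against 1.21 to 3.58 (change 4.58, adjusted p = 0.154). Os04g0369100 gave 1.50 to 2.91 against 1.45 to 2.15 without salt and 7.35, 5.78 and 6.71 against 1.48 to 4.56 with it (4.29, adjusted p = 0.195). The first was thus dim in the salted varieties and the second was bright in salted Pokkali only. Os08g0346900 gave 2.99 to 3.57 against 1.36 to 4.66, and 6.04, 5.71 and 6.22 against 1.18 to 2.50 (4.08, adjusted p = 0.196). Os08g0496800, a RAFTIN1a protein (known from anthers), was added after its values were seen. Its probe AK120942 gave 5.40, 4.67 and 5.34 in salted Pokkali and 1.33 to 3.39 in the salted varieties, and unstressed 1.64 to 5.43 against 2.01 to 4.52 (change 3.16, adjusted p = 0.417). Its other probe, AJ575667, was not apart under salt (adjusted p = 0.167 against IR58 and 0.128 against BRRIdhan 29).

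**Figure D5:**
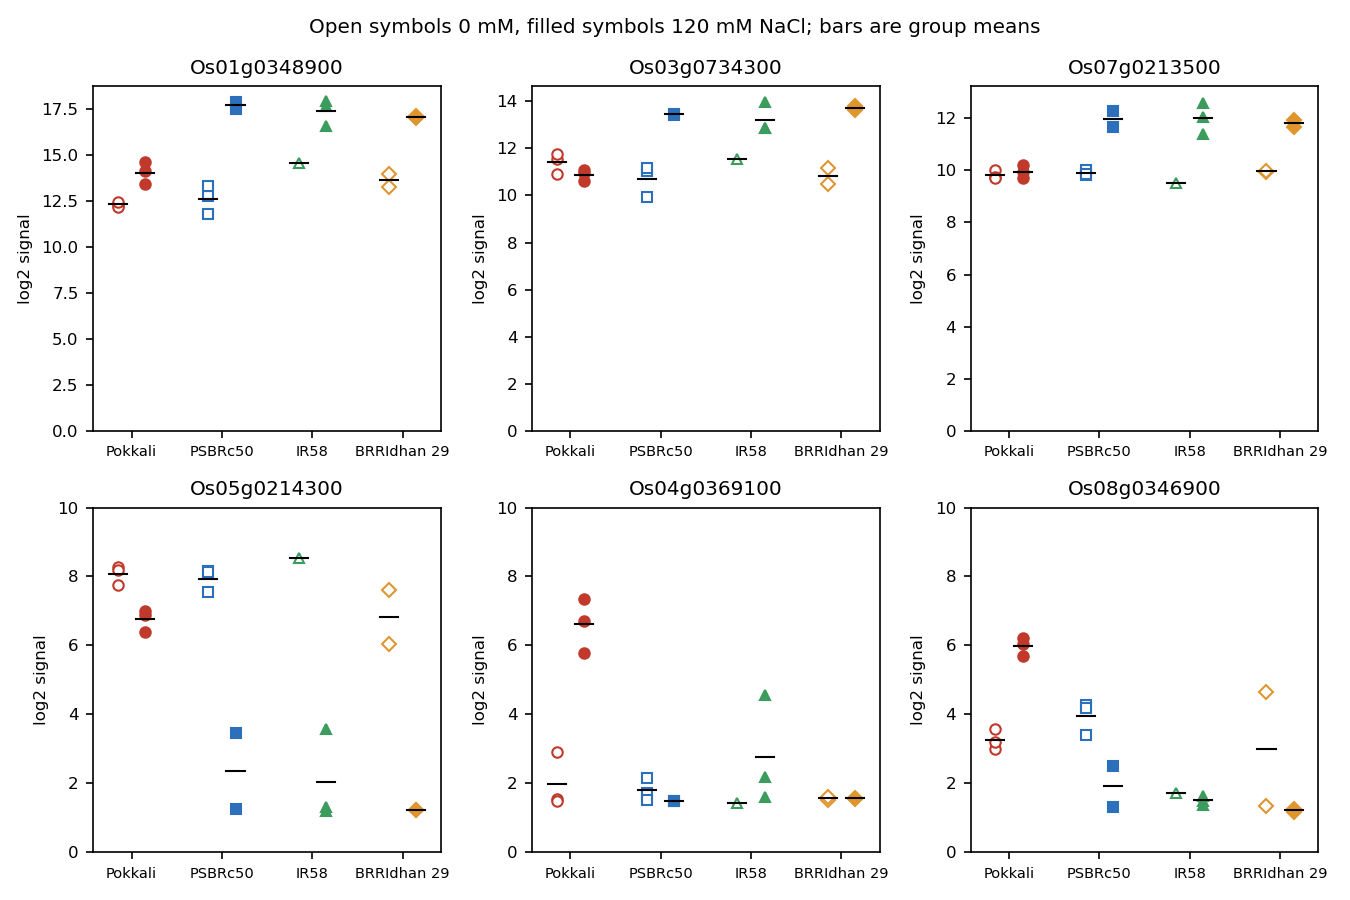
Log2 signal (y axis) on each array of the 4 genotypes (x axis) at 0 mM (open symbols, left) and 120 mM NaCl (filled, right) for 6 loci, with bars at the group means; Os01g0348900 is shown by probe AF001395 and IR58 at 0 mM has 1 array. In the upper row the varieties lie higher under salt than Pokkali (16.54 to 17.92 against 13.41 to 14.58 for Os01g0348900), and in the lower row salted Pokkali lies above the salted varieties.

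The 4 genotypes of the series outside the comparison were set beside the probes that were dark on 1 side. Banikat replicate 3, Nipponbare replicate 3 and *O. latifolia* replicate 2 at 120 mM were left out, since each was most like another genotype, which leaves 2 arrays of each. Of the 119 higher probes not above background in any array of the 3 varieties, 85 were well above background on both Banikat arrays at 120 mM, 19 on both Nipponbare arrays, 17 on the 3 arrays of *O. rufipogon* and 10 on both of *O. latifolia*. Of all 42477 probes, 36693 and 36345 were well above background on Banikat replicates 1 and 2, so a signal there is not particular to these 119. The same counts over all probes were 34107 and 32705 for Nipponbare and 30217, 33939 and 30418 for *O. rufipogon*. For *O. latifolia* they were only 20914 and 21800. Banikat, a *japonica* cultivar from India, had a signal at most of the 119 probes, among them Os01g0944200 (mean 13.46) and Os11g0660500 (11.80). Os12g0539800 (1.56) and Os11g0539600 (1.41) were dim there. Of the 92 lower probes not above background in Pokkali, 84 were above it on both Banikat arrays, 64 on both Nipponbare arrays, 49 on all of *O. rufipogon* and 9 on both of *O. latifolia*. Banikat lay nearer to Pokkali at 81 of the 119 higher probes (68.1%) and at 12 of the 92 lower ones (13.0%). The share of all probes at which it lay nearer was not computed, so these shares have no background beside them. Whether the labels of all arrays used here are right was not tested beyond the likeness between arrays.

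The arrays were scanned on different days and slides, and replicate 1, 2 and 3 of a genotype mostly fell on separate days. Within the 3 scan days the median difference was 3.25 to 3.50 for the higher and −3.09 to −3.42 for the lower probes. These are the values that chose the probes, and their sign was fixed by that choice. IR58 and BRRIdhan 29 lay on other slides than Pokkali, so slide and genotype cannot be told apart there. The 3 Pokkali arrays did not overlap with the other 7 at any of the 664 probes, and at 10.8% of all probes. The count itself depended on single arrays. It was 321 without PSBRc50 replicate 1, 416 without PSBRc50 replicate 2 and 438 without BRRIdhan 29 replicate 2.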

How the data were processed

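Whole-seedling RNA was hybridised to one-color Agilent arrays, with 43734 spots that are not controls. The authors deposited each spot's signal intensity from Agilent Feature Extraction 10.7.3.1, background-subtracted within the array. A further deposited table holds log2 values, quantile-normalized by the methods. Over 42475 probes it correlated with the values computed here at 0.9987 or above once each probe was centred on its mean, but at only 0.185 for the least alike array without centring (column medians −0.17 to 0.51), so the table is centred by probe and its levels were not used.

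Here the log2 intensities of all 46 arrays were quantile-normalized. Outlier-flagged spots were dropped and repeated spots of a probe averaged. Group means (4 at 120 mM, 8 with the unstressed arrays) were fitted with limma 3.58.1 in R 4.3.3. All p-values are Benjamini-Hochberg adjusted over all probes unless called unadjusted. Their spread is that between arrays of a group, shared by the groups of the fit, so seedling, slide and scan day are mixed in it. A probe was above background on an array where a share of at least 0.5 of its spots was flagged so. Scripts were tested on simulated data.

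The comparison, the gene lists and the tests were chosen with earlier results of these data known. Named were, by rule, the 15 highest and 15 lowest probes that set Pokkali apart and were above background on every array of the bright side (1 per locus), up to 4 called loci of each list, and the loci Os01g0307500, Os01g0883800 and Os01g0348900. The loci named as level without salt, those with opposing probes, the enzymes and transport proteins marked so, Os08g0198700, Os11g0184900, Os03g0854500 and Os03g0417700 were chosen after their values were seen. Descriptions come from the study's tables, since gene names of the locus table at hand matched no locus of the array, and no probe sequences or coordinates were used here. Alternatives were scaling to the 75th percentile, quantiles over the 10 arrays alone, normexp (offset 50) on the median signals, the authors' log2 table, outlier spots kept, a filter on dim probes (35107 remain), the left-out arrays kept, 1 spread shared by all groups, the slide, the day of the scan or the replicate number as a block, and leaving out each array.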

Additional observations from a re-analysis of the deposited data

How the results depend on the processing

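The count of probes that set Pokkali apart, 664, stayed within 1.5 times under 75th percentile scaling (575), normexp (747), slide or scan day as a block and the other settings not named here. With PSBRc50 replicate 3 kept it was 288, and the counts were 1355 against the mean of the 3 (3158 without that array), 756 against PSBRc50 (1848), 1167 against IR58 (2083) and 882 against BRRIdhan 29 (2003). With 1 spread shared by all groups of the series these were 237, 946, 670, 782 and 651. Slide as a random block gave 3580 against PSBRc50, and scan day as a random block gave 5067 against the mean, 3197 against IR58 and 3047 against BRRIdhan 29. The cause was not tested.

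Leaving out 1 array gave 321 to 608 probes apart, 1882 to 2987 against the mean, 849 to 1842 against PSBRc50, 1438 to 1982 against IR58, 1117 to 1934 against BRRIdhan 29 and 1574 to 2290 at 0 mM. Counts moved by over 1.5 times against the mean without Pokkali replicate 1 (1882) or 2 (1954), against PSBRc50 without its replicate 1 (849) or 2 (1143), and against BRRIdhan 29 without its replicate 1 (1246) or 2 (1117) or Pokkali replicate 1 (1290). A group left with 1 array is assumed to vary like the others. All arrays kept, the 0 mM count was 1209 in place of 2160. The change with salt, 0 probes, was 7 with the authors' values, 4 with outlier spots kept (an alternative chosen after seeing the data) and 0 to 3 without 1 array. It could not be fitted without the only IR58 array at 0 mM.

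By limma's estimate, arrays of 1 slide had a correlation of 0.46 and those of 1 scan day of 0.28, and the main fit has no term for either. Same-numbered seedlings of different genotypes had deviations with correlations of −0.06 to 0.37. The 1 negative value is that of Pokkali and BRRIdhan 29 replicate 2, an array that lies on the slide and scan day of replicate 3, and the 12 pairs scanned on the same day lay between 0.09 and 0.37. With the replicate block, 666 probes were apart, 559 of them shared with the main count, and the counts were 3269 against the mean, 1716, 2557 and 2011 against the varieties in the order above, 2597 at 0 mM and 0 for the change with salt. The 2 probes of Os01g0883800 that are level between the genotypes changed sign. AB077025 (−0.04) was 0.055 by 75th percentile scaling, 0.20 with the replicate block, 0.049 with scan day as a random block, 0.11 with it as a term and −0.44 to 0.37 without 1 array, and AY114310 (−0.09) was 0.18 by that scaling and −0.47 to 0.29 without 1 array. By gene group, calls ran from 1 to 7 for transposable elements, 1 to 8 for disease resistance, 3 to 5 for F-box proteins and 0 to 9 for Os01g0290000 to Os01g0330000 (0 without PSBRc50 replicate 1, and 1 without Pokkali replicate 1, PSBRc50 replicate 2 or either BRRIdhan 29 array, in place of 3). The single calls of proton pumps, glutathione transferases and receptor-like kinases were lost with PSBRc50 replicate 3 kept, that of pathogenesis-related proteins without PSBRc50 replicate 1 or BRRIdhan 29 replicate 1, and that of glycosyltransferases without any 1 array. Signal over background limits the dim side of 119 higher and 92 lower probes to a bound.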
